A study of Citrus x clementina and Citrus japonica with 6 samples.

Results

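Fatty acid synthesis and desaturation in citrus fruit was described from 69 gene models, of 30139 in the expression table. A model was taken where its first KEGG Orthology name was an acetyl-CoA carboxylase, an enzyme acting on acyl carrier protein (ACP), a fatty acid desaturase or a long-chain acyl-CoA synthetase. This choice used annotation only and no measured value. Fruit of kumquat, Fortunella japonica, which is eaten with its peel, was set against fruit of Clementine mandarin (Citrus x clementina), with 3 RNA-seq libraries of each. A kumquat library pooled fruit of 5 ages, namely 15, 30 and 45 days from flowering and, later, 80 and 120 days. For clementine the 3 early ages were the same and the later ages were 100 and 180 days. Neither species received a treatment. Species and fruit age therefore cannot be told apart in any comparison. The stage label of the kumquat libraries names clementine fruit, whereas their cultivar label names kumquat, and the cultivar label was followed. Plants numbered 3, but no label ties a library to a plant, so p-values measure only the spread between these libraries, which may be technical. In pooled fruit, fewer cells of a type and less RNA per cell cannot be told apart.

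In plants, fatty acids are built in plastids on ACP. Acetyl-CoA carboxylase makes malonyl-CoA, a malonyltransferase moves the malonyl group to ACP, and rounds of condensation, reduction, dehydration and reduction lengthen the chain. A soluble acyl-ACP desaturase sets the first double bond, thioesterases release the free acid, and acyl-CoA synthetases activate it for use outside the plastid. Membrane-bound omega-6 and omega-3 desaturases then add further double bonds to chains in membrane lipids. In fruit these chains go to membranes, to the cutin and wax of the peel and to the oil of the seed.

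Levels were given as FPKM, fragments scaled to the length of a model and to the size of the library, so that levels of different models can be compared. FPKM summed to between 691560 and 707892 per library, and total fragment counts are unknown. Libraries of 1 species correlated at 0.969 to 0.979 across models, and libraries of different species at 0.81 to 0.816. The 69 models took between 0.314% and 0.347% of the FPKM sum. They stood above most of the table, with a median level of 17.9 FPKM against 4.74 FPKM for all models, and 57 of them were above 0 in all 6 libraries. A plastid component term was attached to 6 of the models, which were all acyl-ACP desaturases. The term for fatty acid synthase activity was attached to 8.

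Of the 69 models, 56 had at least 1 FPKM in at least 3 libraries and were tested. The other 13 reached at most 1.64 FPKM in any library. Of the 56, 47 had at least 1 FPKM in all 6 libraries. The remaining 9 passed this filter through the species in which they were higher, which fixes a difference, so those of them named below are given as values without a test. In a limma fit over all tested models, calls were made where the adjusted p (Benjamini-Hochberg) was under 0.05. Log2 changes compare kumquat with clementine as log2(FPKM + 1), and a positive change means higher in kumquat. The added 1 understates changes of low models. In kumquat 21 of the 56 were called higher and 16 lower, and 19 were not called. The share called was 66.1%, beside 57.1% of all 22050 tested models, of which 29.9% were higher and 27.1% lower. For 40 of the 56 the libraries of the species did not overlap, beside 63.9% of all tested models. The median change was -0.01 over the 56 models and 0.04 over all, and the median size of a change was 0.48 against 0.50. A change of at least 2-fold was called for 15 of the 56 models, 10 higher and 5 lower, beside 24.5% of all tested models. All 9 models that passed the filter through their higher species are among the called ones, and most of them are among the 2-fold ones. Their difference was fixed by the filter, so these counts, and the counts by role below, are descriptive only. The shares over all tested models came from the same filter.

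**Figure D1:**
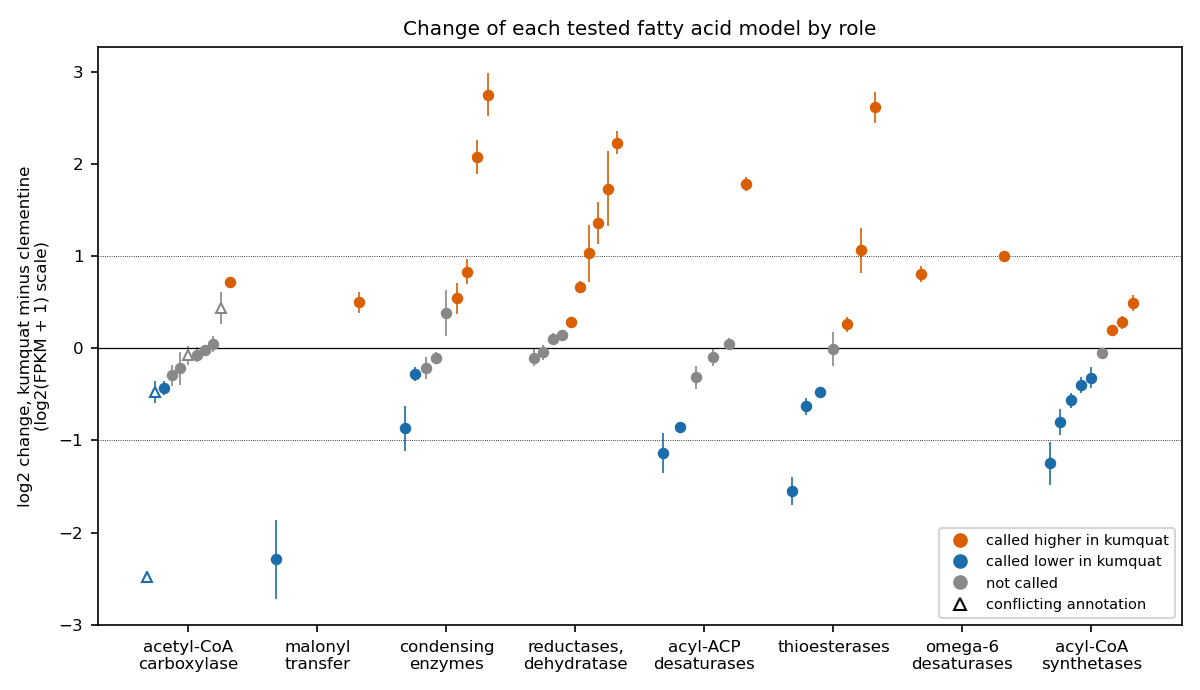
Log2 change (kumquat minus clementine, log2(FPKM + 1) scale) of the 56 tested models, each a point with its standard error, in 8 roles; orange is called higher in kumquat, blue called lower and grey not called, and open triangles are models of conflicting annotation. Most points lie between the dotted lines at 1 and -1, while single models in several roles stand far outside them.

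Annotation was not equally firm throughout. In 6 models the carboxylase name stood beside an unrelated name, plasminogen activator inhibitor 1 RNA-binding protein, and 3 of these carried an endopeptidase term, 2 were matched to a CO(2)-response secreted protease-like protein and 1 had only conflicting names. The second most abundant of them, Ciclev10000363m, had 35.9, 33.0 and 32.1 FPKM in kumquat, against 203.7, 191.3 and 182.3 FPKM in clementine. Its log2 change of -2.48 (SE 0.0663, adjusted p = 2.48e-07) was the largest fall among the 56 models. The most abundant, Ciclev10027859m, averaged 194.3 ± 26.9 FPKM in kumquat and 204.1 ± 14.5 FPKM in clementine (SD, n = 3 each) and was not called (adjusted p = 0.542). Ciclev10000349m was listed at 0 in all kumquat libraries and at 0, 0.04 and 0 FPKM in clementine. These 6 models are left out of the account of the carboxylase that follows. Without them, 52 models were tested, of which 21 were called higher and 14 lower. This share of 67.3% stood beside 57.1% of all tested models, and the median change was 0.02.

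Of the 8 remaining acetyl-CoA carboxylase models, 7 were tested, of which 1 was called higher and 1 lower. This share of 28.6% stood beside 57.1% of all tested models. The model called higher in kumquat was the single-chain enzyme, and the model called lower was the biotin carboxylase subunit of the multisubunit enzyme. In plants the single-chain form is known chiefly from the cytosol, where its malonyl-CoA serves chain elongation and flavonoid synthesis, and the multisubunit form works in the plastid. The single-chain model Ciclev10000007m had 134, 134 and 127 FPKM in kumquat, against 78.4, 81.3 and 80.0 FPKM in clementine. All kumquat libraries lay above all clementine libraries, by 0.71 on the log2 scale (SE 0.0499, adjusted p = 1.9e-05). It made up 50.7% ± 0.34 of the summed carboxylase level in kumquat and 35.7% ± 1.37 in clementine (SD, n = 3 each).

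The biotin carboxylase subunit Ciclev10007954m, chosen for naming after its values were seen, as was the next model, had 30.8, 30.1 and 28.6 FPKM in kumquat and 43.8, 37.4 and 40.6 FPKM in clementine. It fell by 0.43 on the log2 scale (SE 0.0757, adjusted p = 0.00209), with no overlap between species. The alpha subunit of the carboxyl transferase, Ciclev10011119m, averaged 44.4 ± 1.49 FPKM in kumquat and 45.2 ± 1.90 FPKM in clementine and was not called (adjusted p = 0.76). None of the 4 tested models of the biotin carboxyl carrier protein, the swinging arm of the enzyme, was called on its own, with changes between -0.29 and 0.04. Ciclev10012427m and Ciclev10012287m share a protein match, and their sum fell to 17.2 ± 2.27 FPKM in kumquat, against 21.2 ± 0.113 FPKM in clementine (log2 change -0.30, adjusted p = 0.0272). They were named after their values were seen. The single-chain enzyme and the biotin carboxylase subunit were the only models of this role called on their own. The ratio of the first to the second was 4.35, 4.47 and 4.42 in the kumquat libraries. In the clementine libraries it was 1.79, 2.17 and 1.97. Summed over all 8 models, carboxylase levels were 259.5 ± 9.13 FPKM in kumquat and 223.9 ± 4.55 FPKM in clementine. The 7 subunit models alone summed to 127.9 ± 4.83 FPKM in kumquat and 144.0 ± 5.98 FPKM in clementine.

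The malonyltransferase, which loads malonyl groups onto ACP, was represented by 4 models with the same protein match. The main one, Ciclev10028558m, had 42.0, 38.9 and 46.9 FPKM in kumquat, against 25.2, 33.5 and 31.4 FPKM in clementine. It rose by 0.50 (SE 0.118, adjusted p = 0.00872). A minor model of the same match, Ciclev10028856m, went the other way, with 0.13, 1.96 and 0.07 FPKM in kumquat and 9.13, 6.49 and 4.5 FPKM in clementine. Ciclev10028885m averaged 0.647 ± 0.322 FPKM in kumquat and 0.717 ± 0.309 FPKM in clementine and was not tested. Fragments may be divided among models that share a match, so the sum is the firmer value. It was 44.1 ± 3.30 FPKM in kumquat and 37.9 ± 2.55 FPKM in clementine, a log2 change of 0.21 (adjusted p = 0.0376).

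The condensing enzymes (3-oxoacyl-ACP synthases), which join each malonyl unit to the growing chain, had nearly the same summed level in both species, 154.1 ± 10.3 FPKM in kumquat and 155.9 ± 7.94 FPKM in clementine over 10 models. Of 9 tested, 4 were called higher and 2 lower, a share of 66.7% beside 57.1% of all tested models. The most abundant, the synthase II model Ciclev10015139m, averaged 51.8 ± 3.24 FPKM in kumquat and 55.9 ± 2.03 FPKM in clementine and was not called (adjusted p = 0.204). A further synthase II model, Ciclev10007846m, was slightly lower, with 40.0, 34.4 and 34.4 FPKM in kumquat against 44.7, 43.1 and 44.6 FPKM in clementine (log2 change -0.28, SE 0.0752, adjusted p = 0.0146). That call was lost without kumquat replicate 2 (adjusted p = 0.054) and without kumquat replicate 3 (adjusted p = 0.0507). The only synthase III model, Ciclev10020462m, an enzyme that starts the chain, averaged 36.3 ± 3.33 FPKM in kumquat and 42.4 ± 6.40 FPKM in clementine and was not called (adjusted p = 0.154).

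The models called higher in this role were minor ones. Ciclev10027465m, a synthase II model, had 6.24, 4.29 and 7.86 FPKM in kumquat, against 0, 0 and 0.12 FPKM in clementine. It passed the filter through its kumquat libraries alone, and its fitted log2 change, 2.75 with a pseudocount of 1 and 5.54 with 0.1, is given with no test. Ciclev10025676m and Ciclev10015116m are named after their values were seen. The first had 3.44, 4.11 and 3.36 FPKM in kumquat, against 0, 0.21 and 0.10 FPKM in clementine. Ciclev10015116m averaged 12.9 ± 0.354 FPKM in kumquat and 6.86 ± 1.21 FPKM in clementine (log2 change 0.83, SE 0.137, adjusted p = 0.00154).

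Among reductases and dehydratases, which turn the condensed unit into a saturated one, 6 of 10 models were called higher in kumquat and none lower. Of all tested models, 29.9% were called higher and 27.1% lower. Of the 6, Ciclev10024514m and Ciclev10023854m passed the filter through their kumquat libraries. They averaged 2.53 and 2.06 FPKM in kumquat, against 0.757 and 0.197 FPKM in clementine, and were named after their values were seen. Ciclev10020750m and Ciclev10002114m, described below, carry a further name. Over the 10 models the sum was 408.7 ± 7.35 FPKM in kumquat and 321.6 ± 3.20 FPKM in clementine. The most abundant oxoacyl reductase, Ciclev10032120m, had 83.6, 89.4 and 88.1 FPKM in kumquat, against 71.0, 71.0 and 72.0 FPKM in clementine. It rose by 0.28 (SE 0.0505, adjusted p = 0.00224). A further oxoacyl reductase, Ciclev10024548m, averaged 79.9 ± 3.78 FPKM in kumquat and 72.3 ± 1.62 FPKM in clementine and just missed the threshold (adjusted p = 0.0628). The enoyl reductase Ciclev10015082m, which closes each round, averaged 68.5 ± 2.37 FPKM in kumquat and 64.2 ± 4.22 FPKM in clementine (adjusted p = 0.248). The main dehydratase, Ciclev10029222m, named after its values were seen, averaged 61.0 ± 3.62 FPKM in kumquat and 63.0 ± 5.84 FPKM in clementine (adjusted p = 0.668).

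The largest change of this role was in Ciclev10020750m, with 49.98, 50.2 and 51.2 FPKM in kumquat, against 12.0, 8.34 and 9.89 FPKM in clementine. It rose by 2.23 (SE 0.12, adjusted p = 5.44e-06). Besides the oxoacyl reductase name it carries the name dehydrogenase/reductase SDR family member 7, so its place in fatty acid synthesis is uncertain. Ciclev10002114m, named after its values were seen, also carries the name xanthoxin dehydrogenase, an enzyme of abscisic acid synthesis, and averaged 31.5 ± 0.815 FPKM in kumquat and 19.5 ± 0.494 FPKM in clementine (log2 change 0.66, SE 0.0652, adjusted p = 0.00011). The 3 oxoacyl reductase models with a further name summed to 99.1 ± 2.31 FPKM in kumquat and 48.1 ± 1.00 FPKM in clementine. The 4 with that name alone summed to 171.5 ± 2.85 FPKM in kumquat and 144.6 ± 2.21 FPKM in clementine. A minor dehydratase, Ciclev10026811m, had 3.90, 10.6 and 11.1 FPKM in kumquat and 1.06, 1.33 and 2.96 FPKM in clementine (log2 change 1.73, SE 0.403, adjusted p = 0.00797). Its lowest kumquat library lay close to its highest clementine library.

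Acyl-ACP desaturases, the soluble plastid enzymes that set the first double bond of stearic acid, kept nearly the same sum but a different leading model. Of 6 tested, 1 was called higher and 2 lower. Over 7 models the sum was 312.3 ± 1.73 FPKM in kumquat and 322.8 ± 8.57 FPKM in clementine. Ciclev10031784m had 93.7, 95.5 and 101.3 FPKM in kumquat, against 25.1, 30.4 and 27.4 FPKM in clementine, and rose by 1.78 (SE 0.0795, adjusted p = 2.28e-06). With Ciclev10032044m, which has the same protein match, the sum of the match was 97.1 ± 4.47 FPKM in kumquat and 27.8 ± 2.68 FPKM in clementine. Ciclev10001415m had 85.9, 94.0 and 88.0 FPKM in kumquat, against 156.6, 170.4 and 160.8 FPKM in clementine, and fell by 0.86 (SE 0.058, adjusted p = 1.59e-05). Neither model overlapped between species.

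In shares of the desaturase sum, Ciclev10031784m was 31.0% ± 1.11 in kumquat and 8.55% ± 0.624 in clementine, and Ciclev10001415m was 28.6% ± 1.41 in kumquat and 50.4% ± 0.967 in clementine (SD, n = 3 each). The ratio of Ciclev10031784m to Ciclev10001415m was 1.09, 1.02 and 1.15 in kumquat libraries and 0.16, 0.178 and 0.171 in clementine libraries. The third abundant model, Ciclev10020487m, averaged 72.2 ± 1.13 FPKM in kumquat and 69.8 ± 3.99 FPKM in clementine and was not called (adjusted p = 0.49). Further models had lower levels. Ciclev10001443m averaged 37.5 ± 4.08 FPKM in kumquat and 40.1 ± 2.99 FPKM in clementine, and Ciclev10001459m averaged 15.3 ± 0.720 FPKM in kumquat and 19.5 ± 3.36 FPKM in clementine. Neither was called, at adjusted p = 0.409 and 0.0623, and both were named after their values were seen, as was Ciclev10001456m. That minor model had 0.68, 0.54 and 1.29 FPKM in kumquat, against 3.26, 3.15 and 2.55 FPKM in clementine.

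**Figure D2:**
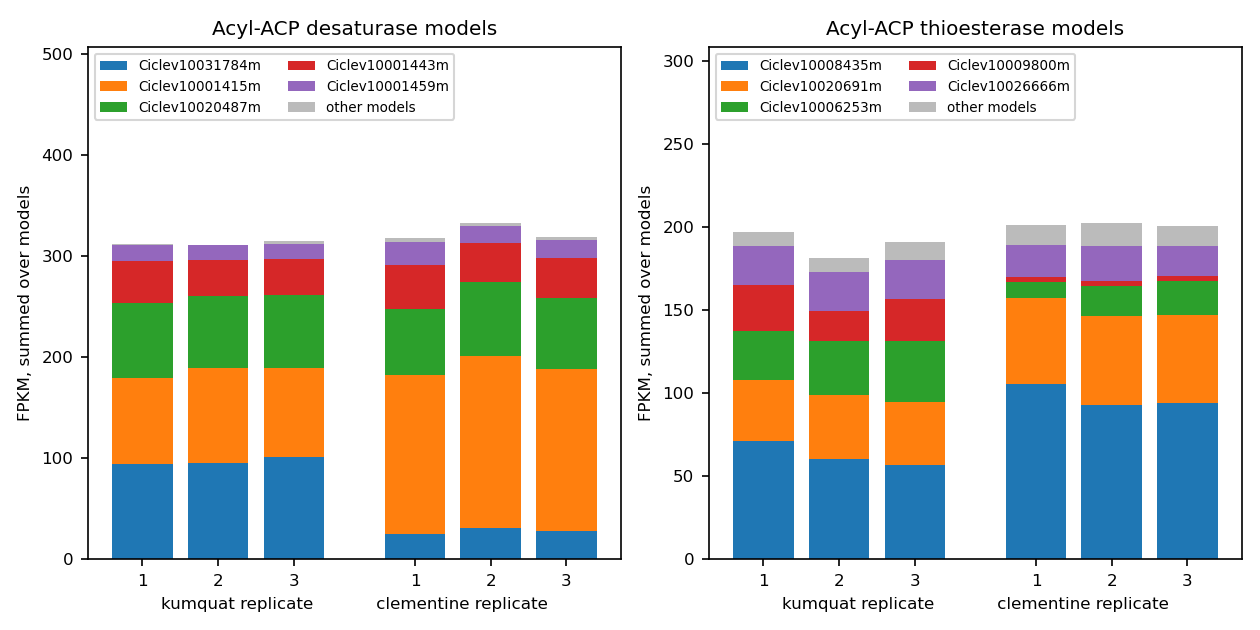
FPKM summed over acyl-ACP desaturase models (left) and acyl-ACP thioesterase models (right) in each library, kumquat replicates 1 to 3 left of clementine replicates 1 to 3, with colours for single models. The bars of both panels are of similar height in both species, while Ciclev10031784m makes up 31.0% of the desaturase bar in kumquat and 8.55% in clementine, and Ciclev10009800m makes up 12.5% of the thioesterase bar in kumquat and 1.5% in clementine.

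Acyl-ACP thioesterases, which end synthesis by freeing the acid from ACP, were likewise close in sum, 189.7 ± 7.93 FPKM in kumquat and 201.5 ± 0.981 FPKM in clementine over 10 models, while the main models of both types were lower in kumquat. Type A acts mainly on oleoyl-ACP and type B mainly on palmitoyl-ACP. The only type A model, Ciclev10020691m, had 36.4, 38.8 and 37.5 FPKM in kumquat, against 51.5, 54.1 and 52.8 FPKM in clementine. It fell by 0.48 (SE 0.0567, adjusted p = 0.000276). The most abundant type B model, Ciclev10008435m, matched to the acyl-ACP thioesterase B of sweet orange, had 71.3, 60.1 and 56.9 FPKM in kumquat, against 105.6, 92.6 and 94.2 FPKM in clementine. It fell by 0.63 (SE 0.0953, adjusted p = 0.000978). Neither overlapped between species.

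Among the 7 thioesterase models tested, 3 were called higher and 3 lower, a share of 85.7% beside 57.1% of all tested models. Those higher were type B models, of which 2 changed by at least 2-fold. Ciclev10009800m had 27.8, 18.1 and 25.5 FPKM in kumquat, against 3.04, 2.88 and 3.12 FPKM in clementine (log2 change 2.61, SE 0.166, adjusted p = 1.18e-05). Ciclev10006253m had 29.8, 32.5 and 36.8 FPKM in kumquat, against 9.77, 18.0 and 20.2 FPKM in clementine (log2 change 1.06, SE 0.241, adjusted p = 0.00712). Its change was 0.76 without clementine replicate 1, the lowest library, and 0.98 without kumquat replicate 3, each under 2-fold. Only 2 of the 9 type B models carry the term for hydrolysis of acyl-ACP, and neither Ciclev10009800m nor Ciclev10006253m is among them. The 2 with the term summed to 63.8 ± 7.59 FPKM in kumquat and 102.3 ± 7.09 FPKM in clementine. The 7 without it summed to 88.4 ± 7.0 FPKM in kumquat and 46.4 ± 6.19 FPKM in clementine. Ciclev10015449m, a minor model with the term, named after its values were seen, had 1.03, 0.92 and 1.06 FPKM in kumquat, against 4.84, 5.03 and 4.69 FPKM in clementine. Ciclev10010820m averaged 6.78 ± 0.972 FPKM in kumquat and 6.88 ± 1.56 FPKM in clementine and was not called (adjusted p = 0.984). Ciclev10009620m was listed at 0 in all kumquat libraries and at 0, 0.24 and 0.47 FPKM in clementine.

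The omega-6 desaturases, which turn oleic into linoleic acid chains in membrane lipids, were both higher in kumquat, and 1 of them was the most abundant of all 69 models there. Ciclev10011949m had 285, 302 and 304 FPKM in kumquat, against 147, 150.4 and 146 FPKM in clementine. Its mean was 2.01 times that in clementine, a log2 change of 1.00 (SE 0.048, adjusted p = 3.14e-06). In clementine 3 of the 69 models had a higher mean. Ciclev10015614m, matched to FAD2, the delta(12)-desaturase of the endoplasmic reticulum, had 51.0, 50.2 and 42.5 FPKM in kumquat, against 27.7, 27.5 and 25.8 FPKM in clementine, and rose by 0.80 (SE 0.0849, adjusted p = 0.000159). All kumquat libraries lay above all clementine libraries for both models.

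Summed, the pair reached 345.0 ± 7.96 FPKM in kumquat and 174.8 ± 2.92 FPKM in clementine. The share of Ciclev10011949m in that sum was 86.1% ± 1.48 in kumquat and 84.6% ± 0.438 in clementine, a difference of about the spread between libraries. Relative to the summed acyl-ACP desaturases, Ciclev10011949m stood at 0.951 ± 0.0302 in kumquat and 0.458 ± 0.00543 in clementine. Further membrane desaturases bear names outside the rule and were listed after those names were seen. Of 12 tested, 5 were called higher and 2 lower, a share of 58.3% beside 57.1% of all tested models. The most abundant omega-3 model, Ciclev10011691m, had 198, 208 and 198 FPKM in kumquat, against 108, 115 and 110.3 FPKM in clementine. Its log2 change was 0.86 (SE 0.0498, adjusted p = 7.68e-06). A further omega-6 model, Ciclev10028238m, averaged 54.8 ± 2.12 FPKM in kumquat and 36.8 ± 1.43 FPKM in clementine (log2 change 0.56, SE 0.0608, adjusted p = 0.000176).

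**Figure D3:**
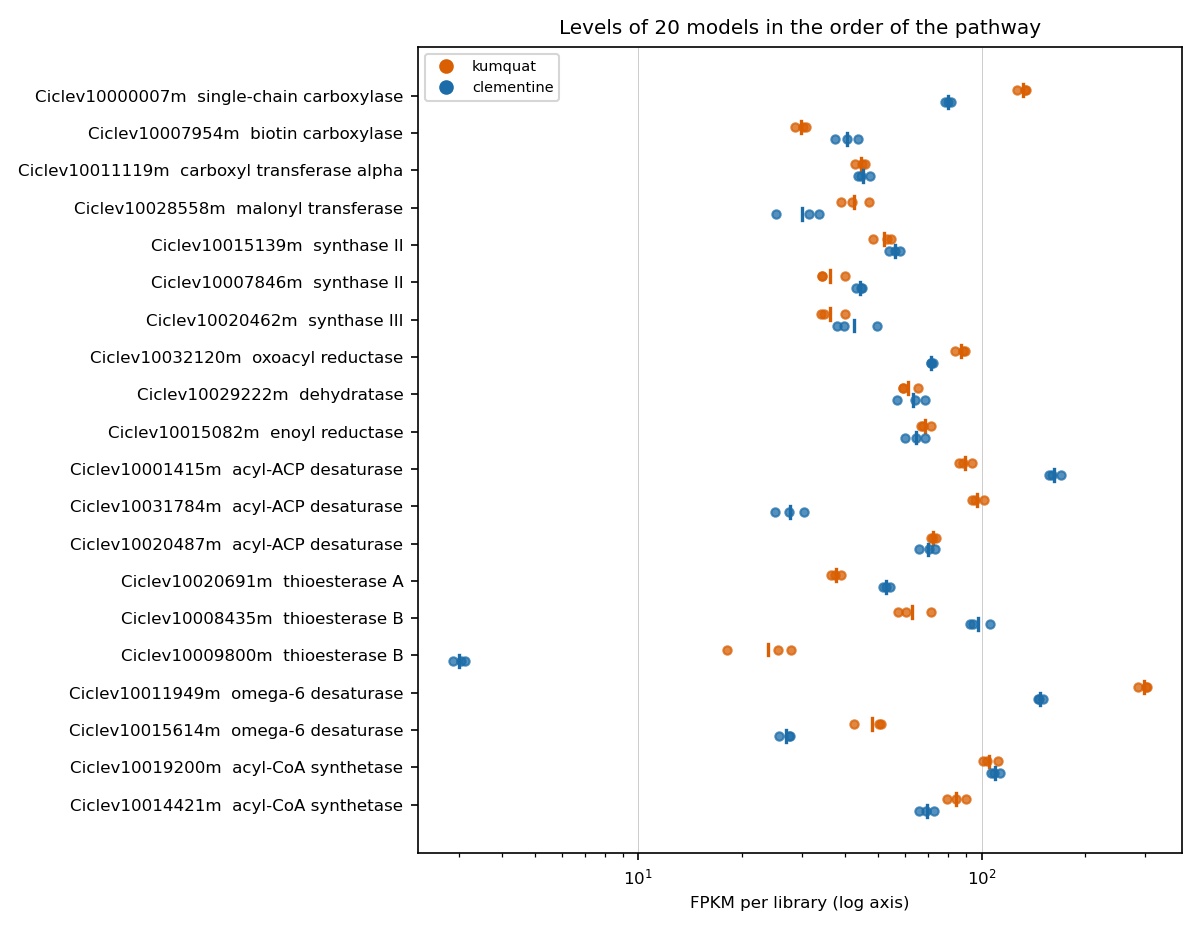
FPKM of 20 models on a log axis, in pathway order from top to bottom; each dot is a library, each vertical bar the mean of 3, kumquat in orange above clementine in blue. The omega-6 desaturase Ciclev10011949m lies between 285 and 304 FPKM in kumquat and between 146 and 150.4 FPKM in clementine. The dehydratase, the enoyl reductase and the condensing models Ciclev10015139m and Ciclev10020462m overlap between species. The condensing model Ciclev10007846m lies between 34.4 and 40.0 FPKM in kumquat and between 43.1 and 44.7 FPKM in clementine.

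Long-chain acyl-CoA synthetases, which activate freed acids for lipid assembly, elongation or breakdown, summed to 319.4 ± 16.6 FPKM in kumquat and 318.3 ± 7.46 FPKM in clementine over 12 models. Of 9 tested, 3 were called higher and 5 lower, a share of 88.9% beside 57.1% of all tested models. Changes were under 0.5 on the log2 scale in 6 of the 9. The most abundant, Ciclev10019200m, averaged 105.4 ± 5.32 FPKM in kumquat and 109.5 ± 3.31 FPKM in clementine and was not called (adjusted p = 0.427). Ciclev10014421m had 89.8, 84.3 and 79.0 FPKM in kumquat, against 72.9, 65.8 and 69.1 FPKM in clementine (log2 change 0.28, SE 0.0674, adjusted p = 0.00912). Ciclev10004460m averaged 49.8 ± 2.26 FPKM in kumquat and 43.3 ± 0.764 FPKM in clementine (log2 change 0.20, SE 0.0587, adjusted p = 0.0227). Its call was lost, at adjusted p between 0.0545 and 0.0821, when any library but kumquat replicate 3 was left out. Apart from Ciclev10028517m, the models called lower in this role changed by -0.32 to -0.80. Ciclev10028517m passed the filter through clementine, with 0.19, 0.70 and 0.17 FPKM in kumquat against 1.77, 2.13 and 2.68 FPKM in clementine. Summed with Ciclev10027967m and Ciclev10028105m, of the same protein match, levels were 4.80 ± 0.343 FPKM in kumquat and 10.6 ± 0.491 FPKM in clementine (log2 change -1.01, adjusted p = 4.79e-05). These models were named after their values were seen.

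**Figure D4:**
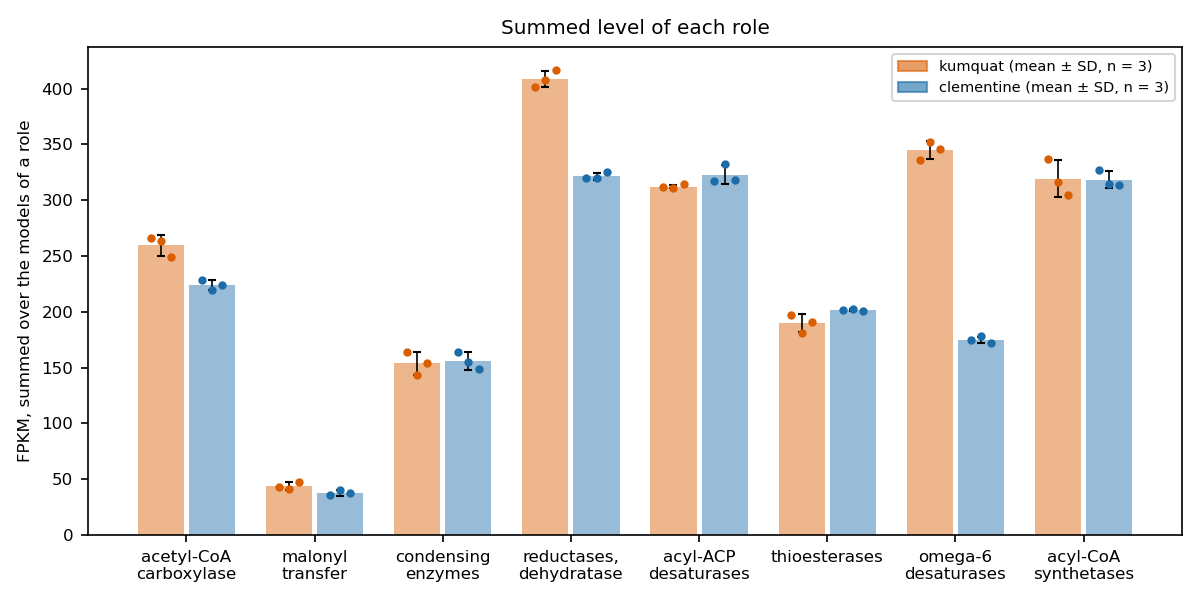
FPKM summed over the models of each role, without the 6 carboxylase models of conflicting annotation. Bars are means of 3 libraries with SD, dots single libraries, kumquat left of clementine. The reductase bars still hold the 3 oxoacyl reductase models with a further name, which summed to 99.1 in kumquat and 48.1 in clementine. The omega-6 desaturases stand at 345.0 in kumquat and 174.8 in clementine and the reductases and dehydratases at 408.7 in kumquat and 321.6 in clementine, while condensing enzymes, acyl-ACP desaturases, thioesterases and acyl-CoA synthetases differ little.

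Among the 29 models with a mean of at least 20 FPKM and no conflicting carboxylase annotation, 19 were called, 13 higher and 6 lower. Of all 6974 models at that level, 67.0% were called, 34.8% higher and 32.1% lower. Of these 29, 4 were called with a 2-fold change, all higher in kumquat, a share of 13.8% beside 18.1% of all models at that level. Among the 4 are Ciclev10020750m, whose place in fatty acid synthesis is uncertain, and Ciclev10006253m, which lacks the acyl-ACP hydrolysis term. Of the 29, 19 changed by less than 0.5 on the log2 scale, a share of 65.5% beside 60.0% of all models at that level.

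Neighbouring steps of lipid metabolism were read from the same fit. Of all tested models in it, 57.1% were called, 29.9% higher and 27.1% lower, with a median change of 0.04. The share called was 62.5% for acetyl-CoA supply and 73.9% for chain elongation. Of 16 tested models for acetyl-CoA supply, 7 were called higher and 3 lower, with a median change of 0.11. ATP citrate lyases make cytosolic acetyl-CoA, the substrate of the single-chain carboxylase, and 3 of their 4 models were called higher and 1 lower. The most abundant, Ciclev10004572m, fell to 206.1 ± 2.39 FPKM in kumquat, against 237.1 ± 6.26 FPKM in clementine (log2 change -0.20, SE 0.0457, adjusted p = 0.0071). The lyases Ciclev10031633m and Ciclev10031636m share a protein match and summed to 254.3 ± 27.7 FPKM in kumquat and 86.5 ± 6.25 FPKM in clementine (log2 change 1.54, adjusted p = 9.89e-07). Chain elongation had 11 called higher and 6 lower of 23 tested, with a median of 0.27. The models Ciclev10032608m and Ciclev10029246m, dehydratases of elongation, rose by 1.18 (SE 0.0942, adjusted p = 3.7e-05) and 1.13 (SE 0.0794, adjusted p = 1.9e-05). The ketoacyl-CoA synthases Ciclev10031467m and Ciclev10008045m, condensing enzymes of elongation, fell by 1.76 (SE 0.148, adjusted p = 4.97e-05) and 1.61 (SE 0.157, adjusted p = 0.000105). The genes of this paragraph and the next were chosen for naming after their values were seen.

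The share called was 51.9% for glycerolipid assembly and 61.5% for beta-oxidation, beside 57.1% of all tested models. It was 44.4% for galactolipids and 87.5% for cofactors. Glycerolipid assembly had 24 called higher and 17 lower of 79 tested, with a median of 0.10. Models of phospholipid:diacylglycerol acyltransferase, which makes storage oil from membrane lipid, went both ways. Ciclev10011959m fell to 15.8 ± 1.76 FPKM in kumquat, against 51.7 ± 3.85 FPKM in clementine (log2 change -1.65, SE 0.0966, adjusted p = 7.93e-06). Ciclev10019263m rose to 14.0 ± 1.32 FPKM in kumquat, against 3.21 ± 0.81 FPKM in clementine (log2 change 1.85, SE 0.175, adjusted p = 9.04e-05), and the log2 change of the sum of its protein match was 0.89. Diacylglycerol O-acyltransferase 1, Ciclev10008048m, the other route to storage oil, rose by 0.81 (SE 0.114, adjusted p = 0.00069). Of 13 tested models of beta-oxidation, the breakdown of fatty acids, 7 were called higher and 1 lower, with a median of 0.30. Of 9 for galactolipids, the lipids of plastid membranes, 3 were called higher and 1 lower. Of 8 for the biotin and lipoate cofactors, 1 was called higher and 6 lower. Of 5 tested lipoyl synthase models, 4 were called lower, 3 of them by at least 2-fold, with a median of -1.24. Of 3 tested biotin synthase models, 1 was called higher and 2 lower. Within these, the biotin synthase Ciclev10020553m averaged 40.1 ± 1.90 FPKM in kumquat and 26.7 ± 1.11 FPKM in clementine (log2 change 0.57, SE 0.0677, adjusted p = 0.000283). A further biotin synthase, Ciclev10024495m, was listed at 0 in all kumquat libraries and at 9.23, 8.54 and 6.98 FPKM in clementine.

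Among markers of tissues that fruit can hold, the seed, green tissue and MADS-box sums did not overlap between species, and the epidermis sums did. Of the seed names searched, only vicilin and late embryogenesis abundant were found, in 3 models, and all 3 were called higher. They summed to 2467.6 to 2971.0 FPKM in kumquat and 643.7 to 808.0 FPKM in clementine. Most of this came from 2 late embryogenesis abundant models, with 2384.6 to 2890.2 FPKM in kumquat and 611.5 to 777.9 FPKM in clementine. The vicilin model had 80.8 to 85.8 FPKM in kumquat and 29.4 to 32.3 FPKM in clementine. No model carried the names oleosin, caleosin, legumin or 2S albumin. Whether the late embryogenesis abundant models come from seed tissue was not tested, so their sum is no measure of seed content. Of all tested models, 29.9% were called higher and 27.1% lower. Of 61 tested green tissue models, 7 were called higher and 32 lower, with sums of 11060.7 to 12392 FPKM in kumquat and 12787.8 to 14029.4 FPKM in clementine. Within them the ribulose-bisphosphate carboxylase small subunits overlapped, at 1295.5 to 1488.4 FPKM in kumquat and 1315.9 to 1446.8 FPKM in clementine. The epidermis list shares its ketoacyl-CoA synthases with chain elongation, and of 30 tested 12 were called higher and 10 lower. It summed to 623.5 to 650.1 FPKM in kumquat and 594.1 to 632.8 FPKM in clementine. Its names did not go the same way. Fatty acyl-CoA reductases summed to 207.9 to 216.0 FPKM in kumquat and 289.1 to 299.2 FPKM in clementine. Aldehyde decarbonylases summed to 143.7 to 147.4 FPKM in kumquat and 62.0 to 65.5 FPKM in clementine, and the ketoacyl-CoA synthase sums overlapped. MADS-box models, the only names found for pollen or flower parts, had 14 called higher and 5 lower of 40 tested and summed to 2096.6 to 2403.3 FPKM in kumquat and 1792.5 to 1955.6 FPKM in clementine. None of the marker lists was at 0 in either species. The part of these tissues in the differences of the fatty acid models was not tested.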

How the data were processed

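The authors' deposited table gives FPKM for each gene model in 3 kumquat and 3 clementine libraries, with 2 decimals, beside KEGG names, GO terms and the best protein match. HISAT, StringTie and DESeq2 are named in the submitters' processing notes, without versions or roles. Which genome build was used is not given in the sources used here. The models carry clementine identifiers, and whether kumquat fragments are assigned to them as fully as clementine fragments was not tested. FPKM are not counts, total depth is unknown, and no counting intervals can be given. Ratios of low values gave approximate depths of 0.869 to 1.00 relative to clementine replicate 2.

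A model was tested if 3 or more libraries had 1 FPKM or more, which held for 22050. R 4.3.3 and limma 3.58.1 were used on log2(FPKM + 1), with a prior variance that depends on the mean and with no covariate. Tests are two-sided, p-values were adjusted over all tested models by Benjamini-Hochberg, and an adjusted p under 0.05 made a call. Roles follow the KEGG name. Named by rule were, per role, the 3 most abundant models, those called with a 2-fold change and at least 5 FPKM in the higher species, and those at 0 in every library of 1 species. The members and lists were chosen with earlier results of these data known. Of the 69 models, 42 were matched to RefSeq entries of Citrus_clementina_v1.0. Alternatives were another pseudocount, other filters, other scalings, the replicate number as a term, no mean-dependent variance, sums over shared protein matches and each library left out.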

Additional observations from a re-analysis of the deposited data

How the results depend on the processing

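Over all models, 12582 were called, 6602 higher and 5980 lower in kumquat. The other pseudocount, filters, scalings and variance prior gave 9919 to 12997 calls, sums over shared matches 11337, and leaving out a library 10046 to 11310. Of the fatty acid models, between 15 and 22 were called higher and between 11 and 18 lower in these alternatives, with the lowest from a filter of 5 FPKM, which tested 43 of them. Leaving out a library gave 15 to 19 higher and 13 to 16 lower, and the balance turned to 15 higher and 16 lower without kumquat replicate 1. Over all models the balance also turned with scaling to the median ratio, to 6257 higher and 6296 lower. It turned as well when any kumquat library was left out, for example to 5497 higher and 5813 lower without replicate 1. A model with 1 FPKM or more in kumquat alone fails the filter when a kumquat library is left out. Leaving out the models of conflicting annotation, an alternative chosen after seeing the data, gave 21 higher and 14 lower. Scaling to the median ratio moved libraries by -0.0198 to 0.0325 on the log2 scale, and put the change of Ciclev10011949m at 0.96, under 2-fold. The change of Ciclev10011949m was also under 2-fold, at 0.99, without kumquat replicate 2, kumquat replicate 3 or clementine replicate 3. Of 26 named and tested models, 21 kept their direction and their side of the threshold in every alternative that tested them. Ciclev10028856m reversed to 0.21 when models of its protein match were summed, which adds the more abundant Ciclev10028558m. Ciclev10004460m was not called without the mean-dependent variance (adjusted p = 0.0734). Ciclev10024548m was called without kumquat replicate 2 (adjusted p = 0.0474). Models that failed a filter gave no value under it, such as Ciclev10027465m when a kumquat library was left out. Replicate numbers are shared between the species, but same-numbered libraries correlated at only 0.119, 0.0424 and 0.0657 in their deviations, and no label ties them together. Each library did correlate best with its own number. With the replicate number as a block, 12944 models were called, 22 and 19 fatty acid models were called higher and lower, and Ciclev10020462m (log2 change -0.21, adjusted p = 0.0263) and Ciclev10024548m (0.14, adjusted p = 0.0337) were called. Total depth is unknown, so the precision of low models cannot be stated.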
